A study of Mus musculus with 89 samples.

Results

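Short alternative exons of 28 to 60 nt were examined in RNA of the mouse nucleus accumbens, part of the ventral striatum. An exon was taken as a member when its end minus its start in the deposited table gave 28 to 60 nt, in each of 2 tables of exon skipping separately. The HSV table lists 3371 such events (2784 distinct exons in 2184 genes) among 27900, and the dCas9-SET2 table lists 942 (864 exons in 749 genes) among 5608. An event is an exon with its neighbours, so an exon listed with several neighbours appears more than 1 time. The rule used the length alone and no read count, and the recomputed lengths of the inclusion and skipping forms differed by the exon length in 100% of HSV events.

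The series holds 89 samples in 21 groups and studies H3K36me3, a histone mark of transcribed gene bodies, together with splicing. All RNA samples are nucleus accumbens punches of wild-type C57BL/6 mice of 8 weeks. A group of 3 libraries each received herpes simplex virus (HSV) carrying GFP, Set2 (the methyltransferase that places the mark) or Set2 with the R195G substitution. Another 16 runs each, under 4 sample names of 4 runs, received dCas9-SET2, a Cas9 without cutting activity joined to SET2, with a guide labelled SRSF11 or a non-targeting guide labelled NT. Every group thus carries a virus or an editor, no uninjected group was analysed here, and a punch mixes cells that took up the vector with cells that did not. The tables hold unnamed columns: the HSV table splits its 5 libraries into a 2-library set, called the pair below, and a 3-library set, called the trio, and the dCas9-SET2 table has a first and a second set of 16 runs. No condition was therefore assigned to any set, and it cannot be said which vector a difference belongs to. Nothing says that the libraries of a set came from separate animals, so no p-value here measures the spread between animals. The limma p-values for inclusion rest on counting error and on a spread set by read depth, not on each event's own spread between libraries. Differences between libraries may be technical.

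An exon whose length is a multiple of 3 can be included or skipped without moving the reading frame of the coding sequence after it, and is called in frame below. An exon of another length shifts that frame when it lies in coding sequence, which can truncate the protein or expose the transcript to decay. Neurons include many short exons that other tissues skip, and these often add a few amino acids to the surface of proteins of the synapse, the cytoskeleton and ion channels. Short exons are hard for the splicing machinery to define, because the sites at both ends lie close together, and they depend on splicing factors that bind the flanking introns. Inclusion level here is the share of transcripts that include the exon, from 0 to 1, with the reads of each form divided by the form's length.

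The bases of the exons are known here for few members, because only RefSeq windows around gene starts (GRCm38.p6) were at hand. In 6 exons of the dCas9-SET2 table, which lie whole inside such a window with 10 flanking bases, the intron ended in AG before the exon and began with GT after it in every case. Those of Dclk2, Cdk19 and Hnrnpd are shown as examples of a called exon, of an exon that shifts the frame and of a splicing regulator's own exon. Capitals mark the exon and lower case the last and first 10 bases of the introns, 5′ to 3′ on the gene's strand.
Dclk2, 48 nt, chr3:86830824-86830871, minus strand: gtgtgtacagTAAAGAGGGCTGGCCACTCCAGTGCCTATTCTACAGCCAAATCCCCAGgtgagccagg
Cdk19, 58 nt, chr10:40454015-40454072, plus strand: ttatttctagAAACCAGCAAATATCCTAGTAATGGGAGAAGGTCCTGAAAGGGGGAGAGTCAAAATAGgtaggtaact
Hnrnpd, 57 nt, chr5:99976534-99976590, minus strand: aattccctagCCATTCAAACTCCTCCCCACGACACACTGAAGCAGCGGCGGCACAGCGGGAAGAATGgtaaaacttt
The exons of Dclk2 and Hnrnpd are in frame, and 2 of the 3 possible reading frames of each hold no stop codon (TAA, TAG or TGA). The exon of Cdk19 is not in frame, and 1 of its 3 frames is free of stops. Their GC content was 54.2%, 59.6% and 43.1% in the order Dclk2, Hnrnpd, Cdk19.

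Inclusion of these 3 exons in the HSV table was high in both sets. The Dclk2 exon, of a doublecortin-like kinase, was at 0.906 and 0.869 in the pair and at 0.933, 0.924 and 0.869 in the trio. The Hnrnpd exon stood at 0.82 and 0.781 against 0.794, 0.803 and 0.792. The Cdk19 exon, of a kinase of the Mediator complex, stood at 0.929 and 0.88 against 0.947, 0.796 and 0.869. None of the 3 was called there, with limma adjusted p-values of 0.874, 0.967 and 0.697 in the same order.

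The HSV libraries held 729618 to 770757 reads over the short exons in the pair and 647997 to 724580 in the trio, with a median of 67.4 reads per event and library against 102 over all events. The dCas9-SET2 runs held 11070 to 14907 and 7768 to 11701 reads, a median of 4.53 per event and run. The 2 HSV sets also differed in the genes that mark cell types, measured as the coverage of each gene's deepest event in CPM, the reads scaled to library size. Of 8201 genes, 22.7% passed in coverage (limma, adjusted p below 0.05). Of 19 measured genes of medium spiny neurons, the main neuron of this tissue, 16 were lower in the trio and 0 higher (median log2 difference -1.34), with a summed level of 11465 to 13982 against 4702 to 4978. All 18 interferon response genes were higher (summed 569 to 1225 against 9048 to 9214), as were 7 of 9 oligodendrocyte genes (6492 to 8737 against 8542 to 11150), 5 of 11 microglial genes (1472 to 3318 against 3596 to 3673) and 3 of 7 astrocyte genes (3883 to 4094 against 4249 to 4360). Of 6 general neuronal genes, 4 were higher and 2 lower (6593 to 7976 against 8383 to 9322). The choroid plexus gene Ttr set library 2 of the pair apart, at 9859 against 404 in its partner and 6.56 to 11.9 in the trio. The part of these differences in the splicing results was not tested, and in tissue RNA fewer cells of a type and less RNA per cell cannot be told apart. Without that library, 46 short exons were called in place of the 73 described below, and without library 1 of the pair, 33.

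Short exons were more often in frame than the table as a whole. Of the 3371 members, 1712 (50.8%) had a length that is a multiple of 3, against 44.7% of all events, 80.4% of the exons of 27 nt or less and 42.8% of the mid-length exons (61 nt and up, without the 1141 longest events). Among the members themselves the share was 63.8% at 28 to 33 nt, 57.8% at 34 to 39 nt, 50.4% at 40 to 45 nt, 46% at 46 to 51 nt and 47.2% at 52 to 60 nt. Of the dCas9-SET2 members, 625 of 942 (66.3%) were in frame, against 55.2% overall. These are counts of the lists and carry no test.

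For 1166 short exon events in 892 genes the reads allowed a test, which here means at least 20 reads per library on average and at least 10 in total for whichever form was scarcer. This filter took 724 of the 1712 in-frame members (42.3%) and 442 of the 1659 others (26.6%), so the frames were not sampled alike. Among the tested events the median inclusion level was 0.76, against 0.859 over all tested events, 0.72 for exons of 27 nt or less and 0.877 for mid-length exons. In-frame short exons had a median of 0.691 and the others 0.857. The order of the frames held in each library: 0.725, 0.694, 0.674, 0.672 and 0.676 in frame against 0.862, 0.85, 0.867, 0.87 and 0.858, with the pair first. Inclusion was between 0.1 and 0.9 in 60.1% of in-frame and 44.1% of other short exons. With all listed events that had a read in every library, the medians were 0.938 and 0.973.

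**Figure D1:**
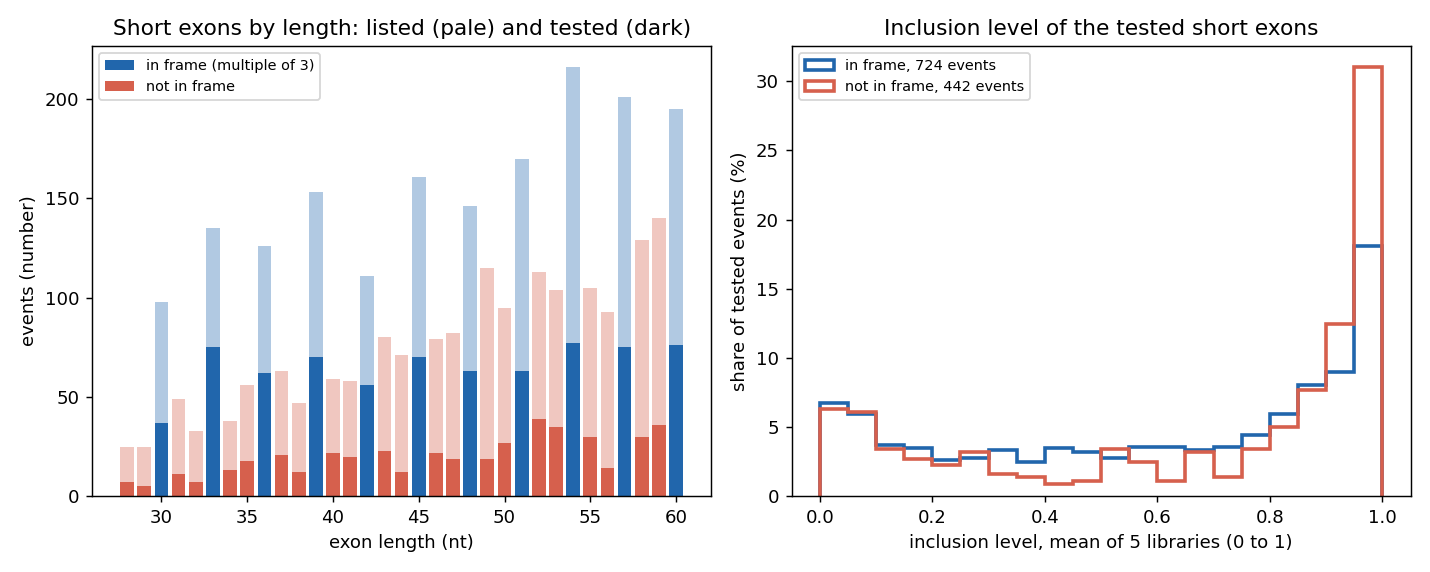
Left, number of short exon events of the HSV table at each exon length in nt, listed (pale) and tested (dark), in frame (blue) or not (red). Right, share of the tested events in bins of inclusion level averaged over the 5 libraries. Lengths that are multiples of 3 stand above their neighbours, and the exons not in frame (median 0.857) pile up more near full inclusion than those in frame (median 0.691).

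Inclusion differed between the 2 HSV sets for 73 of the 1166 tested short exon events (6.26%), in 68 exons of 63 genes, with 28 higher and 45 lower in the trio. With library 1 of the pair left out, which leaves 1 library in that set, more calls were higher than lower. With any 1 of the others left out, the lean towards lower calls remained but was smaller. The lean was not tested. Over all 7754 tested events 3.56% were called, 1.69% higher and 1.87% lower. The share called was 7.18% of 404 exons of 27 nt or less, 2.69% of 5872 mid-length exons and 5.13% of 312 longer exons; the difference between length classes was not tested, and the tested short exons had a median of 109 reads per library against 132 at mid length. Among called short exons the median absolute difference of inclusion was 0.166, the largest was 0.424, and 58 of 73 differed by at least 0.10. The levels of the 2 sets did not overlap in 71 of the 73, and did not overlap in 380 of the 1166 tested (32.6%), where 28.4% of all tested events did not. The median difference over all tested short exons was -0.00307, against -0.0014 over all events.

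The test used limma on the log odds of inclusion reads with Benjamini-Hochberg adjustment, and in it the spread was set by read depth, so an event's own spread between libraries did not enter separately. When 1 between-library variance was added to the weights, 17 short exon events (1.46%) stayed below 0.05, all among the 73, where 0.774% of all tested events did. Beside the limma p-value, the adjusted p of that stricter fit is given below as the stricter p. By the authors' deposited FDR, 187 of the tested short exons (16%) passed, against 12.6% of all, and 71 of the 73 calls were among them. The call held without each of the 5 libraries in turn for 25 of the 73, and for 10 of these also in the stricter fit.

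Calls lay mostly in exons that keep the frame. Of the 73, 64 were in frame (8.84% of those tested), 21 higher and 43 lower, and 9 were not (2.04%), 7 higher and 2 lower. Over all tested events of any length the shares were 5.35% and 1.56%. The 9 that shift the frame were 2 events of the same Dnm1 exon of 37 nt, the overlapping Add1 exons of 37 and 34 nt, and exons of Arhgap44, Rnf157, Hnrnph1, Camta1 and a gene given only as ENSMUSG00000019769. They moved as far as the rest, with a median absolute difference of 0.182 against 0.166 in frame. By length, 20 of 196 tested events of 34 to 39 nt were called and 6 of 213 of 46 to 51 nt. At the edges of the length rule, 0 of 7 tested events were called at 28 nt and 5 of 76 at 60 nt, next to 4 of 64 at 27 nt and 0 of 34 at 61 nt.

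**Figure D2:**
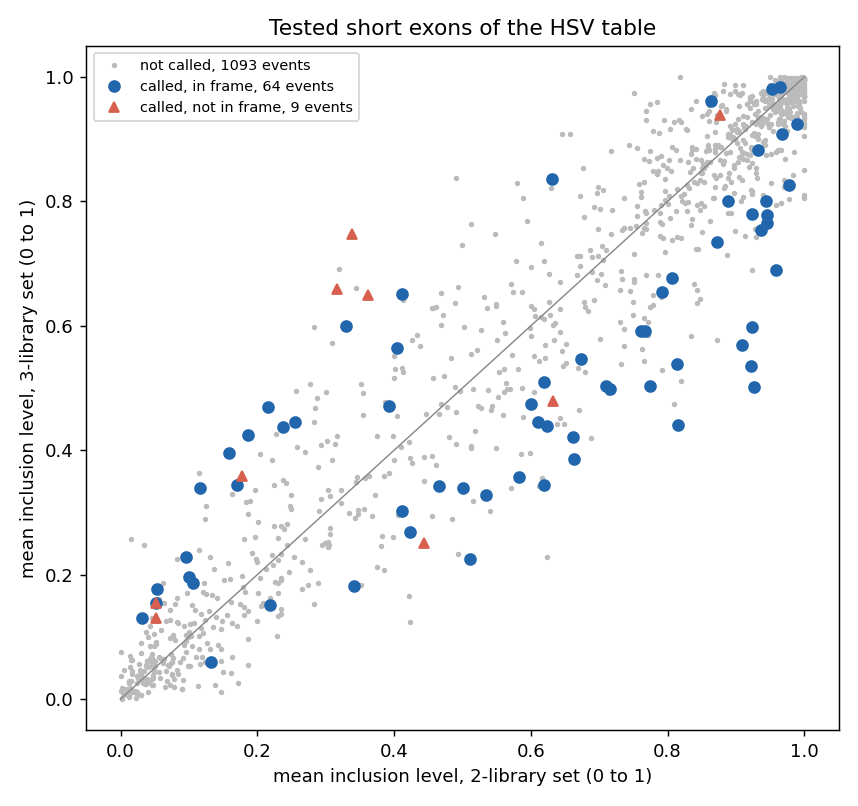
Mean inclusion level of each of the 1166 tested short exon events in the 2-library set (horizontal axis, 0 to 1) and the 3-library set (vertical axis, 0 to 1); blue circles are the 64 called in frame, red triangles the 9 called and not in frame, and grey dots were not called. Of the calls, 45 lie below the diagonal and 28 above it.

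Postsynaptic genes held some of the deepest calls, with 6 of 39 tested events called in 6 of 22 genes, 2 higher and 4 lower. That is 15.4%, against 6.26% of all tested short exons and 3.56% of all tested events. At other lengths, 10 of 60 tested events of these genes were called, so a raised share was not particular to their short exons. This list and those below were drawn up with earlier results of these data known. Their shares are therefore descriptions and were not tested. The 4 kinases of the CaMKII family each carry short exons in the linker that joins the catalytic and the hub domain, and their inclusion changes the spacing of these domains. The 33-nt exon of Camk2a was almost always skipped in the pair, at 0.0328 and 0.0289, and was included more in the trio, at 0.11, 0.159 and 0.122. The groups did not overlap, and the log odds rose by 1.53 ± 0.162 (SE; limma adjusted p = 1.22e-18, stricter p = 0.00266). In Camk2b a 45-nt exon went the other way, from 0.766 and 0.768 to 0.612, 0.567 and 0.597 (limma adjusted p = 2.62e-36, stricter p = 0.261). A 33-nt exon of Camk2g rose from 0.445 and 0.377 to 0.571, 0.694 and 0.691 (limma adjusted p = 0.0081, stricter p = 0.26), and that call was lost without any 1 of 4 libraries, with adjusted p of 0.0539 to 0.322. A second event of the same Camk2g exon had 0.794 and 0.736 against 0.916, 0.849 and 0.839 and was not called (limma adjusted p = 0.424). None of the Camk2d events tested was called; its 42-nt exon stood at 0.816 and 0.715 against 0.731, 0.791 and 0.753 in the deeper event. Gene coverage passed as lower for Camk2b (log2 difference -0.737) and higher for Camk2g (0.632), while that of Camk2a differed by -0.197 (limma adjusted p = 0.0918).

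The called exons of 3 scaffold genes of the postsynaptic density, Dlg3, Dlg1 and Dlgap2, fell. The 54-nt exon of Dlg3 (SAP102) was at 0.731 and 0.7 in the pair and at 0.547, 0.421 and 0.528 in the trio (limma adjusted p = 0.000246, stricter p = 0.245). The 36-nt exon of Dlg1 (SAP97) stood at 0.834 and 0.687 against 0.597, 0.613 and 0.562 (limma adjusted p = 0.0185, stricter p = 0.332). Dlgap2, a partner of these scaffolds, had 0.935 and 0.957 against 0.719, 0.735 and 0.843 for a 42-nt exon (limma adjusted p = 0.00563, stricter p = 0.0437), with its gene coverage lower by 1.15 on the log2 scale (188 and 152 against 73.3 to 79.2 CPM). Pair and trio stood apart in all 3 genes, as in 71 of the 73 called short exons. Of all tested short exons 32.6% stood apart, and of all tested events 28.4%. The Dlg1 call was lost without 3 of the libraries, with adjusted p up to 0.711. The Dlg3 call was lost with library 1 of the pair left out (limma adjusted p = 0.0959), and the Dlgap2 call without either of that set (0.146 and 0.121) or library 1 of the trio (0.0519).

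Genes of the presynapse and of endocytosis had the highest share of the lists, with 10 of 40 tested events called (25%) in 5 of 17 genes. Of these events 3 were higher and 7 lower. Over all tested short exons 6.26% were called, and over all tested events 3.56%. Several of the 10 are events of the same exon or gene, so they are not separate observations, and the share was not tested. At other lengths, 17 of 148 tested events of these genes were called. The list was drawn up with earlier results of these data known, so its high share is a description. Dnm1 encodes the neuronal dynamin that cuts vesicles from the membrane, and its 37-nt exon shifts the frame. In the event with the most reads it was at 0.363 and 0.361 in the pair and 0.651, 0.651 and 0.649 in the trio. Levels within each set differed by far less than between sets, with log odds higher by 1.19 ± 0.116 (SE; limma adjusted p = 1.46e-21, stricter p = 0.0314). Gene coverage of Dnm1 did not pass (log2 difference 0.192, limma adjusted p = 0.186). The shallower called event of the same exon had 0.396 and 0.282 against 0.748, 0.691 and 0.803 (limma adjusted p = 3.61e-05, stricter p = 0.0211). The third event of this exon, with a mean of 29 reads, had 0.667 and 0.889 against 0.969, 0.946 and 0.823 and was not called.

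Synj1 encodes synaptojanin, a lipid phosphatase that strips clathrin from new vesicles, and it had the most calls of any gene. All 4 events, of a 39-nt and a 48-nt exon, fell. The deeper event of the 48-nt exon went from 0.991 and 0.962 to 0.754, 0.857 and 0.866 (limma adjusted p = 0.00265, stricter p = 0.00792). The deeper event of the 39-nt exon went from 0.686 and 0.635 to 0.445, 0.362 and 0.456 (limma adjusted p = 0.000457, stricter p = 0.216). The 2 shallower events were more spread in the trio, at 0.616, 0.873 and 0.582 for the 39-nt and 0.403, 0.757 and 0.448 for the 48-nt exon, where its second library stood closest to the pair levels of 0.916 to 0.971. Each of the 4 calls was lost with library 1 of the pair left out, with adjusted p of 0.155 to 0.3, and all but that of the deeper 39-nt event also with library 2 of the pair left out (0.0763 to 0.26). Both 48-nt calls were further lost without library 1 of the trio (0.0745 and 0.0631). These events share exons and neighbours, so they are not 4 separate observations.

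Clathrin light chain A, the gene Clta, has 2 short exons that neurons include, and an event of each was called. The 36-nt exon fell from 0.883 and 0.863 to 0.708, 0.746 and 0.751 (limma adjusted p = 1.90e-10, stricter p = 0.184). The 54-nt exon had 0.473 and 0.314 against 0.498, 0.474 and 0.442, where the sets overlap (limma adjusted p = 0.00713, stricter p = 0.728), and the authors' deposited FDR was 0.595. That call rests on library 2 of the pair and library 1 of the trio, with adjusted p of 0.998 and 0.172 without them. Events of the same exons with other neighbours, at 0.804 and 0.8 against 0.797, 0.819 and 0.812 for 54 nt and 0.477 and 0.308 against 0.366, 0.378 and 0.346 for 36 nt, were not called. The remaining called genes of the list fell: Synrg, a partner of clathrin adaptors, by 0.424 in a 36-nt exon (stricter p = 1.96e-05), and Dnm1l, the dynamin of mitochondrial fission, from 0.881 and 0.897 to 0.789, 0.838 and 0.773 in a 33-nt exon (limma adjusted p = 0.0355, stricter p = 0.405; 0.173 to 0.322 without 1 of 4 libraries).

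All 4 calls among the channels and transporters, of 24 tested events in 17 genes, were lower in the trio. These calls made up 16.7% of the list's tested events, against 6.26% of all tested short exons and 3.56% of all tested events. At other lengths, 9 of 57 tested events of these genes were called, so a raised share was not particular to their short exons. Itpr1, the inositol trisphosphate receptor that releases calcium from internal stores, fell from 0.994 and 0.984 to 0.949, 0.915 and 0.907 in a 45-nt exon (limma adjusted p = 0.0424, stricter p = 0.0314). Its gene coverage was lower by 1.43 on the log2 scale. The call was lost without each of the 5 libraries in turn, with adjusted p of 0.064 to 0.422. The median difference over the 24 tested events of this list was -0.0585, against -0.0014 over all tested events.

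Signalling genes contributed 4 calls of 22 tested events in 17 genes, 2 higher and 2 lower. Their share was 18.2%, against 6.26% of all tested short exons and 3.56% of all tested events. At other lengths, 6 of 116 tested events of these genes were called. Ppp3ca, the catalytic subunit of calcineurin, had the smallest p-value of all short exons. Its 30-nt exon was at 0.939 and 0.909 from 7239 to 9398 reads in the pair and at 0.766, 0.799 and 0.775 from 2483 to 2790 reads in the trio. The log odds fell by 1.25 ± 0.0676 (SE; limma adjusted p = 1.39e-71, stricter p = 0.0314). The first p-value rests on counting error and a spread set by read depth, not on this exon's own spread between libraries. Coverage of Ppp3ca, a gene abundant in striatal neurons, was 2579 and 2293 against 946 to 980 CPM. A 39-nt exon of Ndrg4 stood at 0.964 and 0.97 against 0.896, 0.922 and 0.91 (limma adjusted p = 1.37e-34, stricter p = 0.133). Gnas, a stimulatory G protein subunit that couples receptors to cyclic AMP, rose slightly in a 45-nt exon, from 0.961 and 0.945 to 0.98, 0.98 and 0.982 (limma adjusted p = 2.07e-06, stricter p = 0.231). That call was lost without library 2 of the pair (adjusted p = 0.0633), and its gene coverage was higher by 0.865 on the log2 scale. Ptprf, a receptor tyrosine phosphatase, rose from 0.672 and 0.589 to 0.823, 0.872 and 0.814 in a 33-nt exon (limma adjusted p = 0.0206, stricter p = 0.251), but this call was lost without any 1 of the 5 libraries (0.0636 to 0.416).

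In the cytoskeletal list 6 of 48 tested events were called in 5 of 29 genes, 4 higher and 2 lower. This share of 12.5% stood against 6.26% of all tested short exons and 3.56% of all tested events. At other lengths, 21 of 227 tested events of these genes were called. Add1 encodes adducin, which caps actin and joins it to spectrin, and its 2 called exons of 37 and 34 nt share an end and differ by 3 nt at the start. The longer form rose from 0.179 and 0.176 to 0.354, 0.328 and 0.395 (limma adjusted p = 7.88e-19, stricter p = 0.146), and the shorter from 0.0491 and 0.0532 to 0.108, 0.116 and 0.167 (limma adjusted p = 6.44e-07, stricter p = 0.135). Because both are set against the same skipped form, they are not independent. A 39-nt exon of the kinesin Kif21a rose from 0.158 and 0.185 to 0.334, 0.347 and 0.354 (limma adjusted p = 0.00049, stricter p = 0.24), a call lost with library 1 of the pair left out (0.0962). Arhgap44, which switches off small GTPases, had 0.293 and 0.339 against 0.677, 0.658 and 0.642 in a 52-nt exon. This rise of 0.343 was the largest of any short exon by the event of lowest p per exon (limma adjusted p = 3.71e-14, stricter p = 0.0147). The 54-nt exon of Rufy3, a protein of neuronal polarity, fell from 0.161 and 0.104 to 0.045, 0.054 and 0.0796 (limma adjusted p = 2.92e-05, stricter p = 0.231), a call lost with library 1 of the pair left out (0.274).

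The other lists held few calls or none. Over all tested short exons 6.26% were called, and over all tested events 3.56%. At these shares lists of so few events hold few calls or none, so the counts are not a result about these genes. Of 42 tested events in 27 RNA-binding and splicing genes, 2 were called: the 50-nt exon of Hnrnph1 rose from 0.878 and 0.876 to 0.938, 0.926 and 0.952 (limma adjusted p = 0.00721), and the 45-nt exon of its relative Hnrnph2 fell from 0.833 and 0.751 to 0.653, 0.626 and 0.685 (limma adjusted p = 0.00027). The Hnrnph1 call was lost without any 1 of 4 libraries (0.0646 to 0.111) and the Hnrnph2 call without library 1 of the pair (0.379). Neither passed in the stricter fit (0.325 and 0.358), and reads of close relatives can be shared by mapping. Among adhesion and guidance genes 0 of 24 tested events were called in limma, with 5 at an unadjusted p below 0.05 and 3 by the authors' FDR. That list is not complete: Alcam, an adhesion molecule described below, is outside it and was called. Chromatin and transcription genes had 0 of 14, with 0 at an unadjusted p below 0.05 and 0 by the authors' FDR, and medium spiny neuron genes 0 of 6, with 2 and 0. Of 6 tested events in interferon response genes 0 were called, with 0 unadjusted and 0 by the authors' FDR. No member of Srsf11, the gene named by the guide, was analysed here. In all, genes of any function list gave 32 calls of 257 tested events (12.5%) and genes of no list 41 of 909 (4.51%). The lists were drawn up with earlier results of these data known, so this contrast and the share of each list are descriptions.

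Genes outside the lists supplied further large changes, among them an adhesion molecule and a tyrosine kinase, so the lists do not hold every gene of their function. Alcam, a cell adhesion molecule, fell from 0.803 and 0.824 to 0.524, 0.507 and 0.583 in a 39-nt exon, and its log odds fell by 1.32 ± 0.162 (SE; limma adjusted p = 1.01e-13, stricter p = 0.0211). Inf2, a formin that builds actin filaments, rose from 0.0381 and 0.0672 to 0.121, 0.163 and 0.181 in a 57-nt exon (limma adjusted p = 1.60e-12, stricter p = 0.0314), with coverage of 445 and 350 against 110 to 140 CPM. Tnk2, a tyrosine kinase of endocytic traffic, had 0.953 and 0.934 against 0.843, 0.746 and 0.813 in a 45-nt exon (limma adjusted p = 4.33e-05, stricter p = 0.025). The 57-nt exon of Unc80, a partner of the sodium leak channel, had 0.951 and 0.924 against 0.789, 0.712 and 0.761 (limma adjusted p = 0.00487, stricter p = 0.0333). Without library 1 of the pair the Tnk2 and Unc80 calls were lost (0.0505 and 0.316), and the Unc80 call also without library 2 of the pair (0.0666). The Unc80, Tnk2 and Mff exons were singled out after their values were seen, because they passed the stricter fit.

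Further increases came in Mff, Micu3 and Slc25a25. Mff, a receptor for the fission dynamin Dnm1l, rose in 2 events of its 60-nt exon, from 0.391 and 0.419 to 0.493, 0.635 and 0.566 (stricter p = 0.398) and from 0.851 and 0.876 to 0.958, 0.943 and 0.981 (stricter p = 0.0314). The 39-nt exon of Micu3, a regulator of mitochondrial calcium uptake, rose from 0.405 and 0.255 to 0.581, 0.564 and 0.655 (limma adjusted p = 1.31e-06, stricter p = 0.114). The 36-nt exon of Slc25a25, a carrier of adenine nucleotides, rose from 0.237 and 0.196 to 0.438, 0.525 and 0.443 (limma adjusted p = 2.28e-05, stricter p = 0.118). In Cdc42bpa, a kinase of actin and myosin, 2 exons moved in opposite directions: the 48-nt exon fell from 0.619 and 0.547 to 0.41, 0.431 and 0.231, and the 39-nt exon rose from 0.162 and 0.212 to 0.369, 0.597 and 0.309. Both are set against the same skipping reads and are not independent. Both lost the call without library 1 of the pair (limma adjusted p of 0.253 and 0.292). The 48-nt call was also lost without library 3 of the trio (0.191), and the 39-nt call without library 2 of either set (0.0976 and 0.269). In addition, neither passed the stricter fit (0.276 and 0.2).

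The 12 largest decreases, taken with 1 event per exon, were all in frame and ran from 0.207 to 0.424, and the 12 largest increases from 0.182 to 0.343, with 9 in frame. Beside those given above, decreases were called for Zfp827 (33 nt), Sh3kbp1 (57 nt), Nf2 (45 nt), Bcas3 (45 nt), Shisa9 (48 nt) and Vrk1 (60 nt), and increases for Spag9 (39 nt), Tmem44 (33 nt), Mpp6 (42 nt) and Exoc1 (45 nt). Nf2, the membrane-cytoskeleton protein merlin, was at 0.732 and 0.594 against 0.374, 0.39 and 0.395 (limma adjusted p = 3.83e-05, stricter p = 0.126). Shisa9, an auxiliary protein of AMPA receptors, was at 0.721 and 0.828 against 0.557, 0.419 and 0.538 (limma adjusted p = 0.000637, stricter p = 0.126). Exoc1, of the exocyst that tethers vesicles, was at 0.0819 and 0.234 against 0.25, 0.415 and 0.519 from 72 to 98 reads (limma adjusted p = 0.0444, stricter p = 0.211). Calls were lost with library 1 of the pair left out for Nf2 (0.0832) and Exoc1 (0.66; also 0.159 and 0.284 without library 2 or 3 of the trio) and without library 2 of the pair for Shisa9 (0.0782). In all 24 the sets did not overlap and the authors' FDR passed, as in 71 of all 73 called short exons for each measure, 4 passed the stricter fit (Synrg, Alcam, Dnm1 and Arhgap44), and 9 kept the call without each library in turn.

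**Figure D3:**
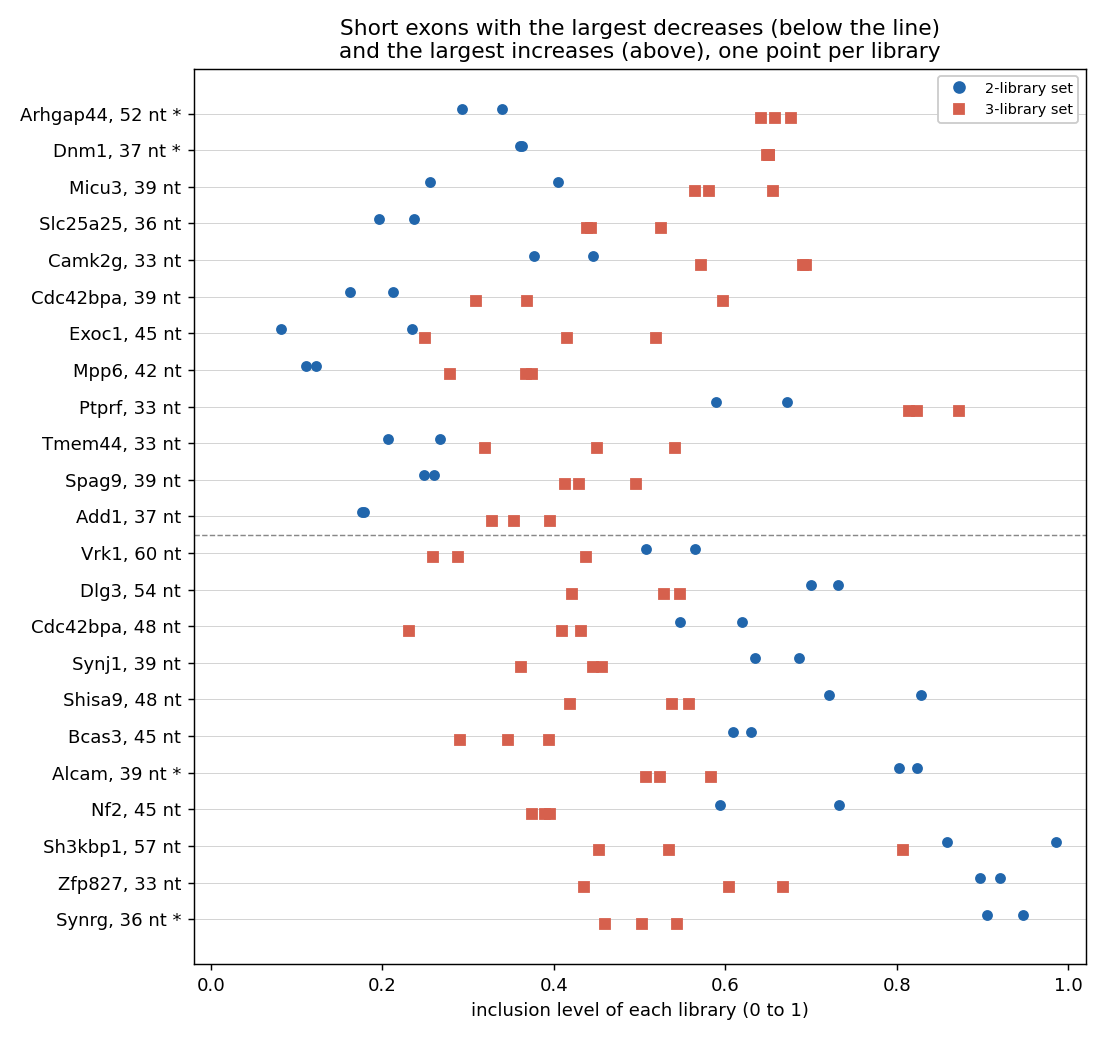
Inclusion level of every library (horizontal axis, 0 to 1) for the 12 short exons with the largest increases and the largest decreases in the 3-library set, 1 event per exon, with 1 of the 12 decreases not shown; blue circles are the 2-library set, red squares the 3-library set, and an asterisk marks the 4 that passed the stricter fit. The sets do not overlap in any row, as in 71 of all 73 called short exons. Dnm1 is tight in both sets, and Sh3kbp1 and Cdc42bpa are spread in the 3-library set.

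Coverage of the genes that held a called short exon was also compared. Of these 63 genes, 7 were higher and 20 lower in the trio (limma), against 112 higher and 113 lower of the 892 genes with a tested short exon and 22.7% of all genes in either direction. Their median log2 difference was -0.176, against -0.0428 for the 892 and 0.000204 for all genes. Of the 73 calls, 42 lay in genes whose coverage did not pass, 19 of them higher and 23 lower and 37 in frame. The part of the coverage differences in the calls was not tested.

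Among dCas9-SET2 events, 41 of the 896 short exon events with an adjusted p in the authors' deposited table passed 0.05 (4.58%), 19 higher and 22 lower in the second set, where 4.96% of all 5287 events did. In frame were 27 of the 41 (12 higher, 15 lower), or 4.51% of the in-frame events, and the others passed in 4.71%. In the HSV table the shares were 8.84% and 2.04%, and the tables were not compared by a test. With a median of at least 5 reads per run in both sets, 20 of the 41 remained, and 5 passed an adjusted p of 0.01. The direction from reads summed over the runs was that of the authors' difference (dPSI) in 38 of 41. The runs of a sample name share a source, so the 16 runs of a set are not 16 replicates, and no test was added to that of the authors.

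The 10 short exons with the largest dPSI among the 20 came from varied genes, and run levels overlapped between the sets in all of them. The 40-nt exon of Ccser2, which shifts the frame, had runs from 0 to 1 with a median of 0.367 in the first set and 0.711 in the second (authors' deposited dPSI 0.343, padj 0.00327). Summed over runs, it rose from 0.395 (54 inclusion and 59 skipping reads) to 0.712 (73 and 21). A 42-nt exon of Camk2d, the fourth CaMKII gene, had a run median of 0.215 in the first and 0.539 in the second set and summed levels of 0.298 and 0.439 (authors' deposited dPSI 0.266, padj 0.0493). A second event of that exon, with other neighbours, had an authors' deposited padj of 0.405. Prrc2c (53 nt, dPSI -0.283), Ncoa5 (56 nt, -0.248), Nmi (40 nt, -0.245), Inf2 (57 nt, -0.21), Usp47 (60 nt, -0.187) and Hsf2 (54 nt, -0.129) were lower in the second set by the authors' deposited table. Dusp11 (47 nt, 0.255), an RNA phosphatase, and Nmt2 (43 nt, 0.167), which attaches myristate to proteins, were higher there.

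Deeper short exons in the authors' deposited calls differed less. Rpn2, of the enzyme that attaches sugars to new proteins, had the most reads, with a median of 88.5 and 59 per run. Its 48-nt exon ran from 0.255 to 0.606 with a median of 0.387 in the first set and from 0.315 to 0.56 with a median of 0.47 in the second (authors' deposited dPSI 0.102, padj 0.0178). A 60-nt exon of Dync1i2, a dynein intermediate chain, was at 0.528 against 0.645 with reads summed (authors' deposited padj 0.0245). The 48-nt Dclk2 exon printed above was at 0.718 against 0.797 with reads summed (authors' deposited dPSI 0.105, padj 0.0297), while its HSV levels lay between 0.869 and 0.933. These 3 were chosen after their values were seen. By the lists, with no floor on reads, 3 of 48 cytoskeletal events with a padj were called and 1 of 32 postsynaptic. The 2 calls of 31 RNA-binding events were Mbnl2 and Tnrc6a, both higher, and the 1 of 11 chromatin events was Smarca2, lower. Median reads per run in the first and second set were 23 and 20 for Mbnl2 but 10.5 and 2.5 for Tnrc6a. For Smarca2 they were 1 and 0.5, so its direction rests on few reads. No event was called among 27 presynaptic, 15 channel, 23 signalling, 24 adhesion and 3 medium spiny neuron events with a padj.

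**Figure D4:**
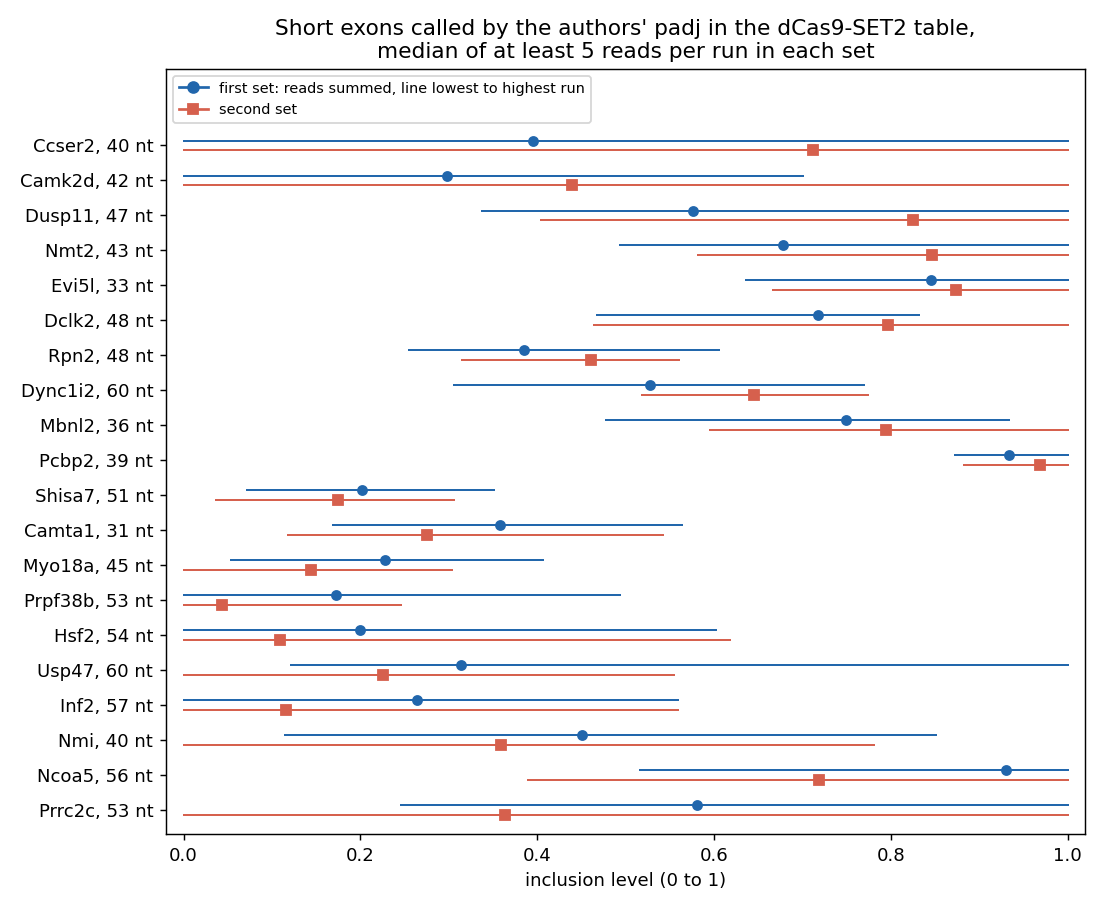
Inclusion level (horizontal axis, 0 to 1) of the 20 short exon events that passed the authors' adjusted p in the dCas9-SET2 table with a median of at least 5 reads per run in both sets; points are the levels from reads summed over 16 runs, lines reach from the lowest to the highest run, with the first set in blue and the second in red. The lines of the sets overlap for every exon, and 10 points are higher and 10 lower in the second set.

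To set the tables side by side, short exons were matched by gene, exon length and the lengths of both introns, since the HSV coordinates are not those of GRCm38. This paired 786 events in 638 genes, 23.3% of the HSV members and 83.4% of the dCas9-SET2 members. For the 327 with enough reads in both tables, the inclusion level averaged over sets differed by a median of 0.0351, 267 lay within 0.10 of each other, and Pearson's r across these exons was 0.972. Exons are not replicates and the tables come from the same tissue, so this is a description of how alike the levels are. The tables were processed separately, and differences between them were not tested.

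The exons called in the HSV table differed little between the sets of the other table. Of the 73 events, 59 were matched. Their median absolute difference was 0.166 in the HSV table, where they had been selected for a difference. In the authors' deposited dCas9-SET2 table their median absolute dPSI was 0.032, with a padj of 0.05 or above for 56. Over all 942 short exon events of that table the median absolute dPSI was 0.0391, at a median of 4.53 reads per event and run. Depth was not matched between the 2 groups of exons. Among the matched exons the median reads per run were 135 and 108 for Ppp3ca, but 3 and 1 for Synrg. With few reads dPSI varies more, so these medians do not show whether the matched exons differed from the rest. The sign was the same in 31 of the 59. With no condition assigned to any set, a shared or an opposite sign between the tables has no meaning. The levels of the dCas9-SET2 table lay between the 2 HSV set means for 42 of the 59, nearer to the pair for 35 and to the trio for 24. Ppp3ca (chromosome 3, 136932011 to 136932040 in the dCas9-SET2 table) was at 0.813 and 0.814 there, between the HSV means of 0.924 and 0.78. The Camk2b exon (chromosome 11, 5981070 to 5981114) was at 0.835 and 0.81, above both HSV means of 0.767 and 0.592, and the Camk2a exon at 0.0313 and 0.0281, next to the pair mean of 0.0309. The Alcam exon (chromosome 16, 52268790 to 52268828) was at 0.853 and 0.855, above the HSV means of 0.814 and 0.538. The Dnm1 exon (chromosome 2, 32310451 to 32310487) was at 0.492 and 0.475, between 0.362 and 0.65. For Arhgap44 (chromosome 11, 65005454 to 65005505) the levels were 0.528 and 0.564, between 0.316 and 0.659, and for Synrg (chromosome 11, 84039656 to 84039691) 0.894 (46 inclusion and 4 skipping reads) and 0.653 (18 and 7), against 0.926 and 0.502.

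Of the 59 matched HSV calls, 3 also passed in the authors' deposited dCas9-SET2 table, where 4.96% of all events and 4.58% of short exons passed, so this overlap is near the background and is not a result about these exons. The values of 2 of them are given as a description. The 57-nt exon of Inf2 (chromosome 12, 112612548 to 112612604) rose in the trio, from a mean of 0.0526 to 0.155, and was lower in the second dCas9-SET2 set, 0.116 against 0.264 with reads summed (authors' deposited padj 0.0318). The 31-nt exon of Camta1, a calmodulin-binding transcription activator, was lower in the trio and in the second dCas9-SET2 set. For neither exon can the directions of the tables be set against each other, because no set has a condition. It had 0.424 and 0.465 against 0.251, 0.239 and 0.262 in the HSV table (limma adjusted p = 8.84e-05, stricter p = 0.262), with gene coverage higher by 1.2 on the log2 scale, and 0.358 against 0.275 in the other (authors' deposited dPSI -0.0812, padj 0.016).

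**Figure D5:**
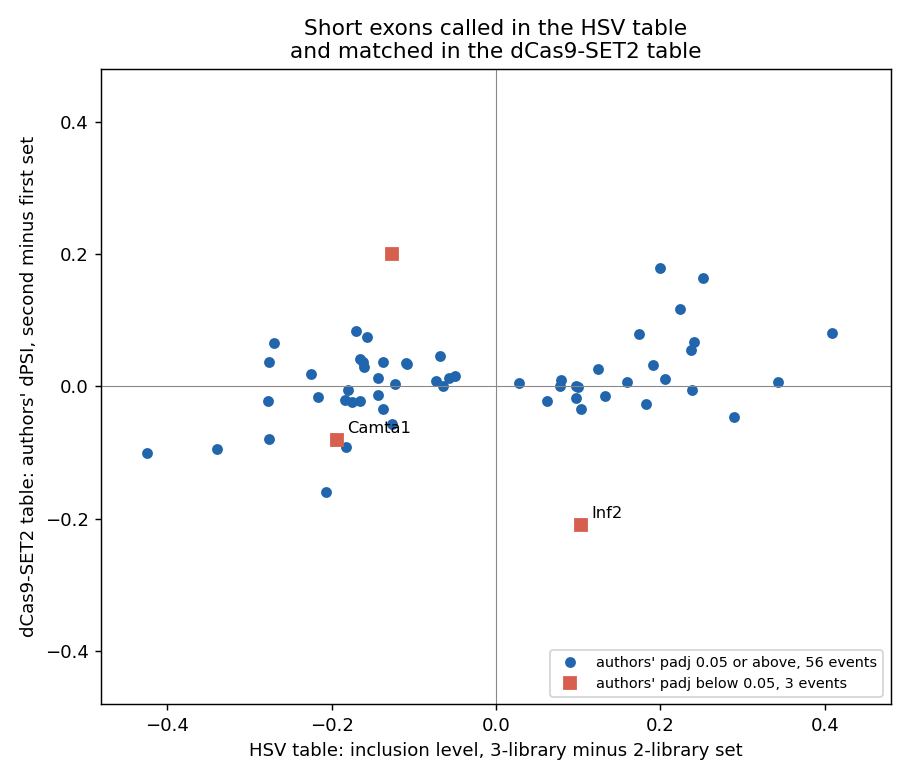
Difference of inclusion level between the HSV sets (horizontal axis, 3-library minus 2-library) and authors' dPSI (vertical axis, second minus first set) for the 59 short exon events called in the HSV table and matched in the dCas9-SET2 table. Red squares are the 3 with an authors' padj below 0.05, of which Inf2 and Camta1 are labelled; most of the other 56 lie near 0 on the vertical axis.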

How the data were processed

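RNA libraries of mouse nucleus accumbens were read from 2 deposited tables of exon skipping. The read counts of the inclusion and skipping form were deposited by the authors as whole numbers joined in cells, and 37 columns (5 in the HSV, 32 in the dCas9-SET2 table) carry no sample name, so sets were compared as the tables define them. The submitters' processing notes name STAR 2.4.1d, Bowtie2, mm9 and mm10 without roles, and no source at hand names the event caller. The p-value, FDR and padj were deposited by the authors, as was the difference score (IncLevelDifference, dPSI). Inclusion levels were recomputed within 0.001 for 100% of values with a skipping form of 150 nt (HSV) or 99 nt (dCas9-SET2). Libraries of histone marks were not used here.

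For the HSV table, limma 3.58.1 in R 4.3.3 was fitted to the log odds of inclusion (0.5 added to each count) over all events with a mean of 20 reads per library and 10 of the rarer form, with weights from counting error, a spread trended on depth and a two-sided moderated test, adjusted with Benjamini-Hochberg at 0.05. The stricter fit, chosen after seeing the data, added a between-library variance of 0.139 (log odds scale). Gene coverage was fitted with limma on log2 CPM, so changes of low genes are understated. The fits were run on simulated data, for inclusion with less spread between libraries than estimated here and for coverage with counting error alone. That check does not show how they behave at the spread of these data. A count model was not used because the counts are not columns of their own. Of the HSV genes with a member, 2159 of 2184 were matched to symbols.

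The members and gene lists were chosen with earlier results of these data known. Named exons were the 12 largest increases and 12 largest decreases among calls (1 event per exon), up to 4 of lowest adjusted p per list, the 10 largest authors' differences with a median of 5 reads per run, genes with several called short exons, and a fixed set (Camk2a, Camk2b, Dnm1, Clta, Add1, Gnas, Arhgap44, Synrg, Srsf11). Alternatives changed the spread, weights, filter, added count, length limits and libraries. Results for some genes that the rule names are not reported here.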

Additional observations from a re-analysis of the deposited data

How the results depend on the processing

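The number of calls, 73, moved with the weights and the libraries. In limma without weights, 0 short exons were called, with 120 at an unadjusted p below 0.05. With the between-library variance there were 17, by the authors' FDR 187, and in genes whose coverage did not pass 42; without 1 library there were 33 to 57. The number stayed within 1.5 times under the other filters, a shared spread, 1 added to each count, a difference of at least 0.10, limits of 31 to 57 nt and 1 event per exon. The share in frame was 87.7%, 73.8% by the authors' FDR and 80.4% to 86.5% without 1 library; the share of calls that were higher was 38.4%, and 39.3% to 57.6% without 1 library. Over 49 named events, of which 5 were not called, 431 of 584 comparisons with an alternative kept their side of the threshold, 152 lost the call and 1 gained it. No called event changed direction in these. The uncalled 36-nt Clta event, at -0.09 in log odds, was at 0.25 without library 1 of the pair and was the call gained, without library 2 (limma adjusted p = 0.0259). No paired analysis was possible because the columns carry no replicate numbers.

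The median inclusion level of short exons, 0.76, was 0.8 as a raw share of reads, 0.96 over all events with a read in every library and 0.735 over distinct exons. As a raw share and over all such events the medians were 0.74 and 0.938 for exons in frame and 0.886 and 0.973 for the others. Without 1 library, the medians were 0.756 to 0.762, 0.675 to 0.701 and 0.851 to 0.861. Coverage passed in 27 of the 63 genes with a call, and in 21 to 30 without 1 library. Of the 41 calls in short exon inclusion of the dCas9-SET2 runs, 20 had a median of at least 5 reads per run in each set, and 5 passed at 0.01. Matching by gene and exon length alone paired 513 exons in place of 786, and 3 were called in both tables. Few reads per run limit the precision of the dCas9-SET2 values.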
